A study of Mus musculus with 24 samples.

Results

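Transglutaminases and peptidylarginine deiminases are calcium-dependent enzymes that modify the structural proteins of the upper epidermis and of hair. The genes followed here were the 4 transglutaminase genes Tgm1, Tgm2, Tgm3 and Tgm5 and the 4 deiminase genes Padi1, Padi2, Padi3 and Padi4. They were chosen by name, as the rows of the deposited count table whose Ensembl identifiers carry these mouse symbols, 8 of 51912 genes. All 8 passed the filter on low counts and stood among the 17287 genes tested. Padi3 did so through its libraries of 1 month, since its day 5 libraries held 1 to 7 counts each.

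RNA of whole ears was sequenced in 24 libraries of 4 groups with 6 libraries each. The groups were E138A ears at day 5 (Card14 with the E138A change), WT ears at day 5, E138A ears at 1 month and WT ears at 1 month, all from mice of the C57BL/6 strain. Every group, WT included, had received tamoxifen by intraperitoneal injection on 3 consecutive days, and times run from the first injection. In the knock-in strain, Card14LSL-E138A, tamoxifen acts through CreERT2 to switch on the mutant protein from the gene's own locus. CARD14 is a keratinocyte scaffold protein upstream of NF-κB, and the series describes the mutation as one linked to psoriasis. The labels used here give neither the promoter that drives CreERT2, nor whether WT mice carry it, nor the age and sex of the mice. They do not say that the libraries came from separate animals, so p-values measure the spread between these libraries, which may be technical. In whole-ear RNA, fewer cells of a type and less RNA per cell cannot be told apart.

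A transglutaminase joins a glutamine of a protein to a lysine of another. In the outer epidermis TGM1, TGM3 and TGM5 do this to loricrin, involucrin, the small proline-rich proteins and the late cornified envelope proteins, which then form the insoluble shell of the corneocyte. TGM2, called tissue transglutaminase, is broadly expressed and is not specific to the epidermis. A deiminase turns the arginines of a protein into citrulline, which changes its charge and loosens its fold. PADI1 and PADI3 act on keratins and filaggrin in the upper epidermis, and PADI3 acts on trichohyalin in the inner root sheath of the hair follicle. PADI2 is widespread, with muscle, brain and glands among its known sites, and PADI4 is best known from neutrophils, where it deiminates histones.

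Promoter windows from RefSeq (GRCm38.p6, 250 bases before the transcript start to 50 bases after it) are shown for the 5 members whose E138A and WT libraries did not overlap at 1 month, Tgm1, Tgm3, Tgm5, Padi2 and Padi3, and for Padi1, whose genotype difference changed sign between the times. Each is written on the strand of its gene, and capitals mark matches, on either strand, to 4 letter patterns, AP-1 (TGANTCA), NF-κB (GGGNNNNNCC), Grainyhead-like (AACCNGTT) and the TATA box (TATAAA). The windows are chr14:55713443-55713742 for Tgm1 (minus strand, the first of 2 listed), chr2:130012090-130012389 for Tgm3 (plus strand), chr2:121085792-121086091 for Tgm5 (minus strand), chr4:140845729-140846028 for Padi1 (minus strand), chr4:140906110-140906409 for Padi2 (plus strand) and chr4:140810599-140810898 for Padi3 (minus strand).
Tgm1: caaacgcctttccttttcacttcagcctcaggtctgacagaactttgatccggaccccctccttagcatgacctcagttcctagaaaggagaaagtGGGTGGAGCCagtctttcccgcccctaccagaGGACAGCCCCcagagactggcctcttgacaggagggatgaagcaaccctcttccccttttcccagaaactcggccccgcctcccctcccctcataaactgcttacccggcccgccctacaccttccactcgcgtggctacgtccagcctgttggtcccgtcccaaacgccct
Tgm3: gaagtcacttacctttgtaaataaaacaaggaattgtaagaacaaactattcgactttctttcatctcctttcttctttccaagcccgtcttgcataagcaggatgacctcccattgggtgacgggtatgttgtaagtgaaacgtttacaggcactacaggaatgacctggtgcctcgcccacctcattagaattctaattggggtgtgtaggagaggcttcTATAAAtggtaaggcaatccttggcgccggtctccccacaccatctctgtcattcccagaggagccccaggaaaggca
Tgm5: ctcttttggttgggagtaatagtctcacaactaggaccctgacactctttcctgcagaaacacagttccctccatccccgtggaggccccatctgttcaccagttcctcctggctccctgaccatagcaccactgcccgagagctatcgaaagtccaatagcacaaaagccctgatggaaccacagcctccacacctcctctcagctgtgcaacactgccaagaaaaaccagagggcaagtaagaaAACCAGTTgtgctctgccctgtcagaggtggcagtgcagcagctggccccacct
Padi1: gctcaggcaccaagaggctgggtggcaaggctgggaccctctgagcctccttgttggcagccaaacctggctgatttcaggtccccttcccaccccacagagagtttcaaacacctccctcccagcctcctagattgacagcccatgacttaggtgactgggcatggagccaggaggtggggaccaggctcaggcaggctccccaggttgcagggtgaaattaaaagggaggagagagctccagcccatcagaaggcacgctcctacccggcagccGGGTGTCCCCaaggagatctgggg
Padi2: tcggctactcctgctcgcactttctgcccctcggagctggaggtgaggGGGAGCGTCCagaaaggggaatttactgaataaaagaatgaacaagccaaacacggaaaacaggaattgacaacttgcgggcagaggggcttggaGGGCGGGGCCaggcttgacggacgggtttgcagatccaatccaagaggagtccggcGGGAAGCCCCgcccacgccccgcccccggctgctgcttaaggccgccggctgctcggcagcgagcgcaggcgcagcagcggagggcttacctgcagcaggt
Padi3: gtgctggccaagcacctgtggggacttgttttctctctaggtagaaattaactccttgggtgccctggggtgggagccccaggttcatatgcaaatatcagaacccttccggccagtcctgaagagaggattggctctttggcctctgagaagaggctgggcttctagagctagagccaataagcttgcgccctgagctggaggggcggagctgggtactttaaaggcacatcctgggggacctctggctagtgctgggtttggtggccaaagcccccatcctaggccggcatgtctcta

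The NF-κB pattern was found in 50.8% of the 32851 RefSeq windows, so its 2 matches in Tgm1, 3 in Padi2 and 1 in Padi1 are common features. The TATA box, in 13.6% of all windows, stood 28 bases before the start of Tgm3. The Grainyhead-like pattern, in 2.09% of windows, stood 4 bases before the start of Tgm5. The window of Padi3 held none of the 4 patterns, and none of the 6 windows held the AP-1 pattern, which 7.81% of all windows had. Padi4 (chr4:140774154-140774453, minus strand) had 1 AP-1, 3 NF-κB and 1 TATA match. No matches of different patterns shared bases in these windows, and a match is a description of letters, not evidence of a factor there. Tgm2 is named only.

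The 4 deiminase genes lie side by side on chromosome 4 of GRCm38, in the order Padi4 (140745865 to 140774236), Padi3 (140785365 to 140810648), Padi1 (140812983 to 140845778) and Padi2 (140906344 to 140952586). Padi2 is on the plus strand and the other 3 are on the minus strand. Tgm5 (121046111 to 121085841), Tgm3 (130012349 to 130050399) and Tgm2 (158116402 to 158146436) lie on chromosome 2, and Tgm1 (55700009 to 55713926) lies on chromosome 14. No source used here gives the strand setting of the counting, so reads of overlapping genes on the opposite strand could be shared. Rprd1b, which overlaps Tgm2 on the opposite strand, held 20613 counts over the 24 libraries, and the values of Tgm2 are uncertain to that extent. The other overlapping genes found in the table held at most 33 counts in all.

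Total counts were 16803680 to 18852963 per library in E138A ears and 15661515 to 16998900 in WT ears at day 5, and 20608274 to 23022149 in E138A ears and 19255028 to 23904976 in WT ears at 1 month. In CPM, which are counts per 1e+06 after TMM scaling, Card14 itself was 35.1 to 65.4 in E138A and 34.6 to 54.2 CPM in WT libraries at day 5, and 9.93 to 25.3 CPM in E138A and 32.9 to 49.9 CPM in WT libraries at 1 month. Since the change switches on a protein variant at the gene's own locus, its RNA level does not check the genotype labels. The ear was recognisable from its markers, with 6 keratinocyte markers summing to 16300 CPM or more, 8 skeletal muscle markers to 888 CPM or more and 6 cartilage markers to 139 CPM or more in every library. Within the E138A ears of day 5, replicates 1 and 3 differed from the rest of their group. Their 13 neutrophil markers summed to 1940 and 2270 CPM, against 5330 to 8780 CPM in the other E138A libraries of that time. Their 4 transglutaminase genes summed to 236 and 344 CPM, against 490 to 666 CPM. These replicates also held the lowest values of that group for Tgm1, Tgm2, Tgm3, Tgm5 and Padi4. No fit without both was run. At 1 month 4 libraries, E138A replicates 1, 2 and 6 and WT replicate 2, stood apart. Their 4 Y-linked genes summed to 17.9 to 67.6 CPM, against 102 to 267 CPM in the other 8 libraries of that time, and 0.923% to 1.29% of their counts were mitochondrial, against 1.91% to 4.28%. Where leaving out these 4 libraries changed the call of a member, or the count of a gene list in E138A against WT ears of 1 time, the result is given with and without them.

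At day 5, 3 of the 4 transglutaminase genes were higher in E138A ears and 2 of the 4 deiminase genes were lower. Tgm1, Tgm2 and Tgm3 were higher and Padi1 and Padi2 lower in edgeR's quasi-likelihood test (p adjusted by Benjamini-Hochberg over all genes tested, below 0.05), 5 of 8 members, where 40.9% of all genes were called. At 1 month Tgm1, Tgm3, Tgm5, Padi1, Padi3 and Padi4 were higher and Padi2 was lower, 7 of 8 members, where 47.1% of all genes were called. Of all genes 20.7% were called higher and 20.2% lower at day 5, and 25.5% higher and 21.5% lower at 1 month. The same shares are the background of the gene lists described below. Without the 4 libraries that stood apart 6 and 7 members were called. Under that setting 9266 and 9541 of all genes were called, against 7068 and 8139 over the 24 libraries. The genotype difference itself changed between the times for 3 members, Tgm3 and Padi1 upward and Padi2 downward, where 8.77% of all genes were called (4.68% upward and 4.09% downward).

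**Figure D1:**
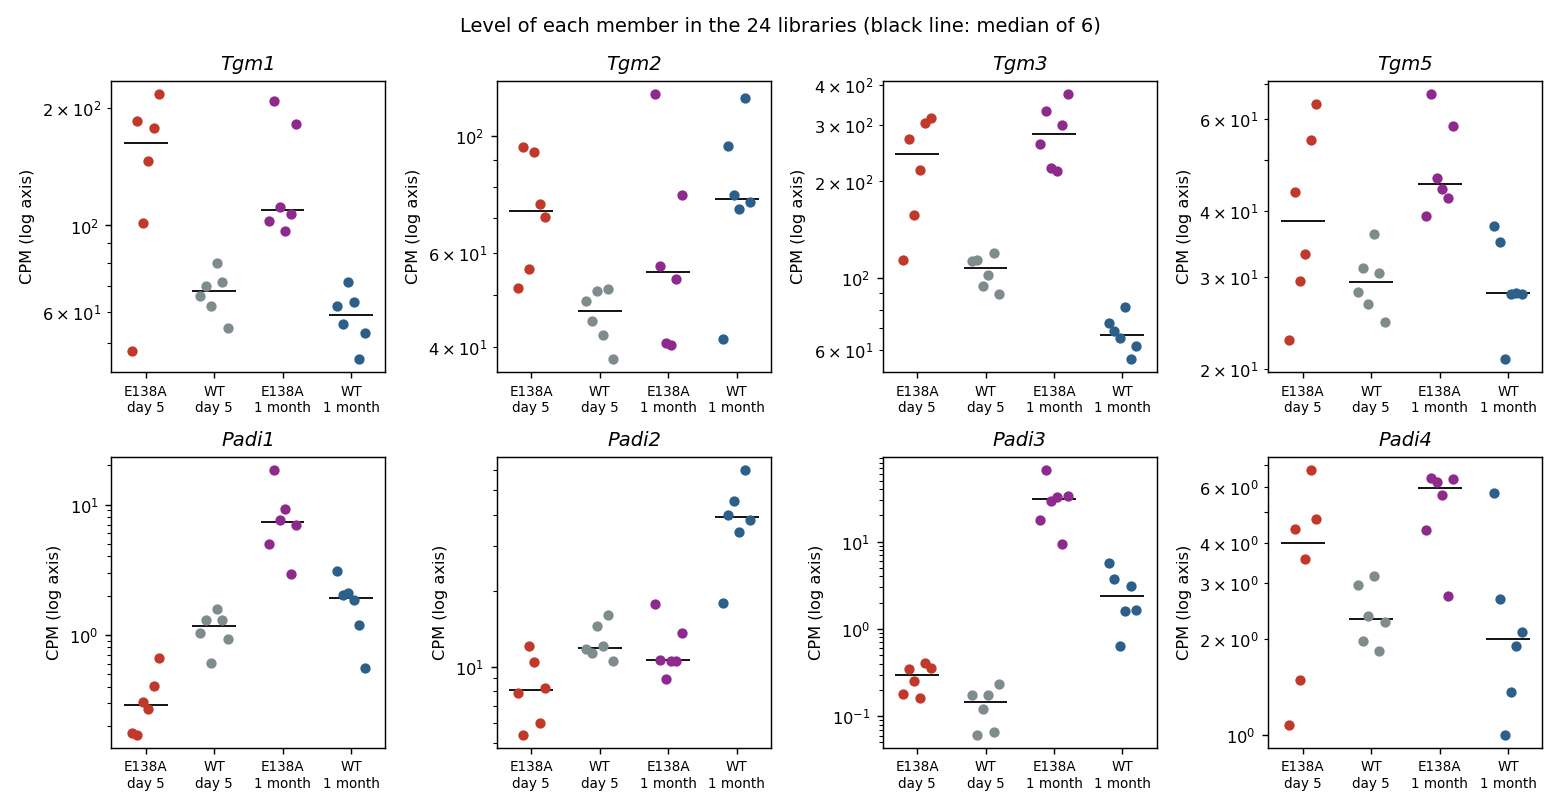
Level of each member in every library, in CPM on a log axis, with 1 point per library and a black line at the median of 6. Padi3 in E138A ears at 1 month lies at 9.42 to 66.2 CPM, above all other libraries, and Padi2 in WT ears at 1 month lies at 17.9 to 60.1 CPM.

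Tgm3, which codes for the epidermal transglutaminase also found in hair, had the largest log2 fold change of the 4 transglutaminase genes at 1 month. At day 5 it lay at 114, 244 and 314 CPM (lowest, median and highest of 6 libraries) in E138A ears, against 89.3, 108 and 120 CPM in WT ears. The values of 1 month were 216, 280 and 373 CPM in E138A ears, against 56.2, 66.9 and 81.2 CPM in WT ears. The day 5 groups overlapped in 1 E138A library, while at 1 month every E138A library lay above every WT library, as 5 of 8 members did not overlap at that time (21.2% of all genes tested did not). The log2 fold changes were 1.12 ± 0.19 (SE, edgeR adjusted p = 6.71e-05) at day 5 and 2.07 ± 0.20 (adjusted p = 1.85e-08) at 1 month. Their difference of 0.95 ± 0.27 passed the test (edgeR adjusted p = 0.0293). However, it was 0.70 without the 4 libraries that stood apart (adjusted p = 0.0874). Without the 3 libraries whose counts rose most with GC content it was 0.84 (adjusted p = 0.0643). It was 0.80 to 0.92 (adjusted p 0.0501 to 0.0626) when WT day 5 replicate 2, E138A day 5 replicate 3 or 4, WT 1-month replicate 6 or E138A 1-month replicate 6 was left out. WT levels of Tgm3 fell with time by 0.64 ± 0.19 on the log2 scale, with all WT libraries of 1 month below those of day 5.

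Tgm1, the membrane-bound keratinocyte transglutaminase whose human gene is mutated in lamellar ichthyosis, was higher in E138A ears at both times. It lay at 47.5, 163 and 217 CPM in E138A ears and 54.4, 67.8 and 80.1 CPM in WT ears at day 5. The values of 1 month were 96.8, 109 and 209 CPM in E138A ears and 45.4, 59 and 71.5 CPM in WT ears. Of the day 5 E138A libraries 5 lay above all WT libraries and replicate 1 below them all, and at 1 month the groups did not overlap. The log2 fold changes were 1.12 ± 0.26 (edgeR adjusted p = 0.00126) and 1.20 ± 0.26 (adjusted p = 0.000455). The change between the times was 0.09, with a 95% interval of -0.66 to 0.83.

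Tgm5, whose human gene is mutated in acral peeling skin syndrome, showed the smallest rise of the 3 epidermal genes. It lay at 22.7, 38.4 and 63.9 CPM in E138A ears against 24.6, 29.3 and 36.2 CPM in WT ears at day 5, and at 39.1, 45.1 and 66.8 CPM in E138A ears against 21, 27.9 and 37.5 CPM in WT ears at 1 month. E138A replicate 1 was again the lowest of its group at day 5, and the groups of 1 month did not overlap. The day 5 log2 difference of 0.48 (95% interval 0.06 to 0.90) did not pass (edgeR adjusted p = 0.0601), although it did without E138A replicate 1 (0.61, adjusted p = 0.0125), without E138A replicate 3 (adjusted p = 0.0387), without WT replicate 4 (adjusted p = 0.0474) and without the 4 libraries that stood apart (adjusted p = 0.0342). It also passed in DESeq2 (0.49, adjusted p = 0.0451) and in limma voom (0.49, adjusted p = 0.00287). In edgeR the day 5 difference of Tgm5 passed without the 3 libraries whose counts rose most with GC content (adjusted p = 0.0464). It passed as well with the relation to GC content as a covariate (adjusted p = 0.037). At 1 month the log2 fold change was 0.74 ± 0.20 (edgeR adjusted p = 0.00376).

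Tgm2, the broadly expressed member, followed another course. At day 5 it lay at 51.6, 72.2 and 95.3 CPM in E138A ears and 38, 46.8 and 51.3 CPM in WT ears. At 1 month it lay at 40.4, 55.3 and 120 CPM in E138A ears and 41.3, 76.1 and 118 CPM in WT ears. It was the only member whose groups did not overlap at day 5 (34.3% of all genes tested did not), and the groups of 1 month overlapped widely. The day 5 log2 fold change was 0.67 ± 0.24 (edgeR adjusted p = 0.0298), and it missed the threshold without E138A replicate 2 or 4 or WT replicate 2, 4 or 6 (0.57 to 0.67, adjusted p 0.0506 to 0.0894). At 1 month it was -0.30 with a 95% interval of -0.81 to 0.20 (edgeR adjusted p = 0.324). That value rested on E138A replicate 1, at 120 CPM: without it the log2 fold change was -0.57 (adjusted p = 0.033), and without the 4 libraries that stood apart, replicate 1 among them, it was -0.80 (adjusted p = 0.00951). Limma voom over the 24 libraries also called Tgm2 lower at 1 month (-0.69, adjusted p = 0.0011). The change between the times was -0.98 ± 0.34 (edgeR adjusted p = 0.0805), and it passed without the 4 libraries (-1.49, adjusted p = 0.00258), without E138A 1-month replicate 1 (-1.25, adjusted p = 0.0086), without WT 1-month replicate 1 (-1.11, adjusted p = 0.0298) and in DESeq2 (adjusted p = 0.0384). It also passed in limma voom (-1.54, adjusted p = 5.21e-06), without TMM factors (-1.02, adjusted p = 0.0467) and with a GC covariate (-0.96, adjusted p = 0.00528). WT ears rose by 0.80 ± 0.24 with time (edgeR adjusted p = 0.0414).

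**Figure D2:**
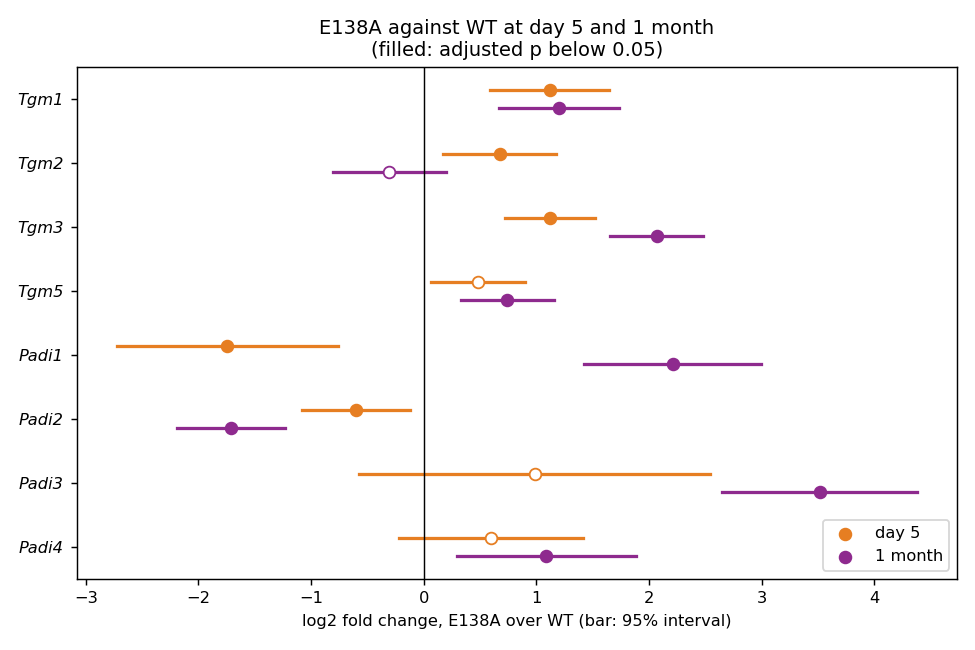
Log2 fold change of E138A over WT for each member at day 5 and at 1 month, with 95% intervals as bars, where filled points have an adjusted p below 0.05. Padi1 lies at -1.75 at day 5 and at 2.21 at 1 month, and Padi2 lies below 0 at both times.

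Per kilobase of exon, the 4 transglutaminase genes summed to 131 ± 46.3 CPM per kb in E138A ears and 66.2 ± 6.59 CPM per kb in WT ears at day 5 (SD, n = 6 libraries each). At 1 month they summed to 141 ± 33.1 CPM per kb in E138A ears and 61.6 ± 3.61 CPM per kb in WT ears. Tgm3 made up 42.6 ± 2.04% of the sum in E138A ears and 38.6 ± 2.16% in WT ears at day 5, and 48.8 ± 3.55% in E138A ears and 26.6 ± 3.32% in WT ears at 1 month. Tgm2 made up 10.1 ± 4.63% in E138A ears and 28 ± 8.38% in WT ears at 1 month. In mean level per kb the order was Tgm3, Tgm1, Tgm2 and Tgm5 in both day 5 groups, and Tgm3, Tgm1, Tgm5 and Tgm2 in E138A ears at 1 month. In WT ears at 1 month Tgm1 (18.5 ± 2.89 CPM per kb), Tgm2 (17.4 ± 5.54) and Tgm3 (16.3 ± 2.12) overlapped in range, so their order was not distinguishable. Tgm5, at 9.35 ± 1.87 CPM per kb with a highest library of 11.9, lay below every library of Tgm1 and Tgm3 and overlapped the range of Tgm2, whose lowest library was at 8.96 CPM per kb. All 4 lay above every deiminase in mean level per kb in all 4 groups.

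Padi3, the deiminase of the granular layer and of the inner root sheath, was nearly silent at day 5 and had the largest change of the 8 at 1 month. It lay at 0.162, 0.3 and 0.405 CPM in E138A ears and 0.0616, 0.147 and 0.232 CPM in WT ears at day 5, which were 3 to 7 counts per E138A library and 1 to 4 per WT library. At 1 month it lay at 9.42, 30.9 and 66.2 CPM in E138A ears and 0.632, 2.36 and 5.63 CPM in WT ears, with no overlap between the groups. The day 5 log2 difference of 0.98 (95% interval -0.57 to 2.54) did not pass (edgeR adjusted p = 0.317), and a smaller difference was not detectable at these counts. The 1 month log2 fold change was 3.51 ± 0.42 (edgeR adjusted p = 3.77e-07), and it was 3.20 (adjusted p = 4.22e-06) without the 4 libraries that stood apart. Between the times Padi3 rose by 6.76 ± 0.53 in E138A ears (edgeR adjusted p = 3.68e-09) and by 4.23 ± 0.58 in WT ears (adjusted p = 6.04e-05). The difference between these rises, 2.53 ± 0.95, did not pass (edgeR adjusted p = 0.107). It passed without WT 1-month replicate 1 (2.86, adjusted p = 0.0486), in DESeq2 (adjusted p = 0.0168) and in limma voom (adjusted p = 0.0113).

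Padi1, the deiminase of the upper epidermis, turned from lower to higher in E138A ears. At day 5 it lay at 0.172, 0.288 and 0.662 CPM in E138A ears and 0.604, 1.17 and 1.57 CPM in WT ears, which were 3 to 11 counts per E138A library and 10 to 27 per WT library. At 1 month it lay at 2.95, 7.33 and 18.4 CPM in E138A ears and 0.556, 1.93 and 3.09 CPM in WT ears. At day 5, 5 of 6 E138A libraries lay below every WT library, and at 1 month 5 of 6 lay above every WT library. The log2 fold changes were -1.75 ± 0.47 (edgeR adjusted p = 0.00481) at day 5 and 2.21 ± 0.38 (adjusted p = 4.05e-05) at 1 month, and their difference was 3.96 ± 0.61 (adjusted p = 0.000138). All 3 calls held in each of the 24 fits without 1 library and without the 4 libraries that stood apart. Padi1 rose with time in E138A ears by 4.64 ± 0.46 (edgeR adjusted p = 9.46e-08). In WT ears the change of 0.68 (95% interval -0.15 to 1.51) did not pass (edgeR adjusted p = 0.281).

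The hair inner root sheath genes moved beside Padi3. Of 9 of them, 0 were called at day 5, and at 1 month 8 were higher in E138A ears and Gata3, a transcription factor gene with other skin sources, was lower (median log2 fold change 3.59, against 0.05 over all genes). Over the 6 libraries of a group at day 5, Krt26 held 6 counts in E138A and 5 in WT ears, and Krt72 held 8 and 2. Such low counts limit what could be detected for these genes at day 5. With time, 8 of the 9 also rose in WT ears. Krt25, Krt26, Krt27, Krt28, Krt71, Krt72 and Krt73, the keratins of that sheath, summed to 324 to 2310 CPM in E138A ears and 12.7 to 211 CPM in WT ears at 1 month, and to 1.56 to 6.3 CPM in E138A ears and 0.925 to 7.58 CPM in WT ears at day 5. Krt28, a keratin of this sheath, was at 52.3 ± 28 CPM in E138A and 4.32 ± 2.89 CPM in WT ears at 1 month, 3.59 ± 0.39 higher on the log2 scale (edgeR adjusted p = 9.88e-08). Replicate 2 of the E138A ears had the highest keratin sum at 1 month together with the highest Padi3 (66.2 CPM) and Padi1 (18.4 CPM). Replicate 5 had the lowest keratin sum, the lowest Padi3 (9.42 CPM) and the lowest Padi1 (2.95 CPM). Among WT ears the highest and lowest sums, 211 CPM in replicate 1 and 12.7 CPM in replicate 3, went with the highest and lowest Padi3 (5.63 and 0.632 CPM), whereas Padi1 was lowest in replicate 6 (0.556 CPM). The part of the root sheath in the level of Padi3 and Padi1 was not tested.

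**Figure D3:**
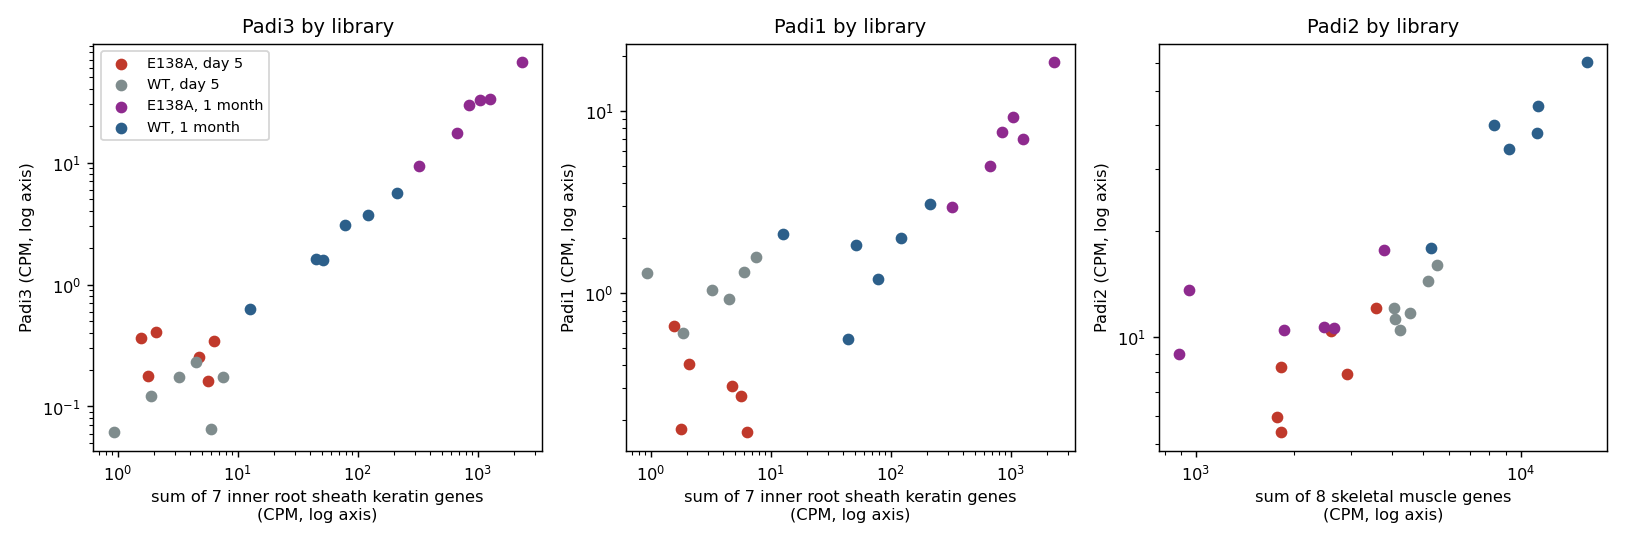
Padi3 and Padi1 in each library against the sum of 7 inner root sheath keratin genes, and Padi2 against the sum of 8 skeletal muscle genes, all in CPM on log axes, with 1 point per library coloured by group. E138A libraries of 1 month sit at keratin sums of 324 to 2310 CPM, and WT libraries of 1 month at muscle sums of 5300 to 16000 CPM.

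Padi2, the widespread deiminase, was lower in E138A ears at both times. It lay at 5.39, 8.07 and 12.1 CPM in E138A ears and 10.5, 11.9 and 16 CPM in WT ears at day 5. At 1 month it lay at 8.96, 10.6 and 17.7 CPM in E138A ears and 17.9, 39 and 60.1 CPM in WT ears, so the groups of that time only just failed to overlap. The log2 fold changes were -0.60 ± 0.23 (edgeR adjusted p = 0.0407) and -1.71 ± 0.23 (adjusted p = 2.07e-06). The day 5 call was lost in 8 of the 24 fits without 1 library, those without E138A replicate 1, 2, 5 or 6 or WT replicate 1, 3, 4 or 5 (-0.63 to -0.52, adjusted p 0.0507 to 0.0963), and the 1 month call in none. The change between the times of -1.11 ± 0.33 (edgeR adjusted p = 0.0344) was lost in 12 of these 24 fits (-1.09 to -0.94, adjusted p 0.0513 to 0.0723), those without E138A day 5 replicate 3 or 4, WT day 5 replicate 1, 2, 4 or 6, E138A 1-month replicate 2, 3, 4 or 5, or WT 1-month replicate 3 or 5. In WT ears Padi2 rose by 1.63 ± 0.23 with time (edgeR adjusted p = 9.04e-05), and in E138A ears the change of 0.52 (95% interval 0.05 to 1.00) did not pass (adjusted p = 0.122), although it did without E138A day 5 replicate 3 (0.69, adjusted p = 0.049).

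Skeletal muscle markers moved with Padi2, though not in every library. Of 8 muscle markers 5 were lower in E138A ears at day 5 and 8 at 1 month (median log2 fold changes -0.96 and -2.39), and 7 rose with time in WT ears. The counts were 7 and 8 without the 4 libraries that stood apart. In the 24 fits without 1 library the day 5 call of Ckm was lost in 16 and that of Acta1 in 7. Tnnt3 and Mylpf gained a day 5 call in 7 and 3 of them. Their sum was 1770 to 3570 CPM in E138A and 4070 to 5510 CPM in WT ears at day 5, and 888 to 3800 CPM in E138A and 5300 to 16000 CPM in WT ears at 1 month. Every muscle marker was present in every group, at a mean of 33.8 CPM or more. WT replicate 5 had both the highest muscle sum of 1 month (16000 CPM) and the highest Padi2 (60.1 CPM), and WT replicate 1 had the lowest of WT ears in both (5300 and 17.9 CPM). Among E138A ears of 1 month replicate 1 was highest in both (3800 and 17.7 CPM) and replicate 3 lowest in both (888 and 8.96 CPM). Replicate 6, with a muscle sum of 950 CPM, had Padi2 at 13.6 CPM. Padi2 was at 8.96 to 17.7 CPM in E138A ears at 1 month and 10.5 to 16 CPM in WT ears at day 5, although their muscle sums did not overlap. The part of muscle in the Padi2 difference was not tested.

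Padi4, the deiminase best known from neutrophils, stayed low. It lay at 1.07, 3.99 and 6.77 CPM in E138A ears and 1.83, 2.31 and 3.15 CPM in WT ears at day 5, and at 2.72, 5.93 and 6.39 CPM in E138A ears and 1, 2 and 5.75 CPM in WT ears at 1 month. The groups overlapped at both times, and WT replicate 1 of 1 month lay close to the E138A libraries. The day 5 log2 difference of 0.60 (95% interval -0.22 to 1.41) did not pass (edgeR adjusted p = 0.238). At 1 month the log2 difference of 1.09 ± 0.39 passed (edgeR adjusted p = 0.023), and the call was lost without the 4 libraries that stood apart (0.97, adjusted p = 0.1), without WT replicate 3 (adjusted p = 0.055) and without WT replicate 4 (adjusted p = 0.0549). Of 8 neutrophil markers tested, 7 were higher and Mpo was lower at day 5, and 6 were higher at 1 month, when Mpo was lower as well without the 4 libraries that stood apart (-2.32, adjusted p = 0.0249). The sum of the full list of 13 was 1940 to 8780 CPM in E138A and 18.6 to 24.4 CPM in WT ears at day 5, and 3230 to 7140 CPM in E138A and 30.2 to 77.5 CPM in WT ears at 1 month. Most of it came from S100a8 and S100a9, calprotectin genes that keratinocytes can also express. Cxcr2, a neutrophil chemokine receptor gene, was at 85.2 ± 37.3 CPM in E138A and 3.92 ± 0.807 CPM in WT ears at day 5. Ly6g, with no count in WT ears at day 5, was at 1.84 ± 1.21 CPM in E138A ears. At 1 month Cxcr2 was at 37.3 ± 4.39 CPM in E138A and 4.65 ± 2.75 CPM in WT ears. Ly6g was then at 0.156 ± 0.129 CPM in E138A and 0.0149 ± 0.0232 CPM in WT ears. Of the 8 markers tested, 4 had a lower genotype difference at 1 month than at day 5 by the test of that change. For 0 of them it was higher, where 4.09% of all genes were called downward and 4.68% upward. The part of neutrophils in the Padi4 values was not tested.

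**Figure D4:**
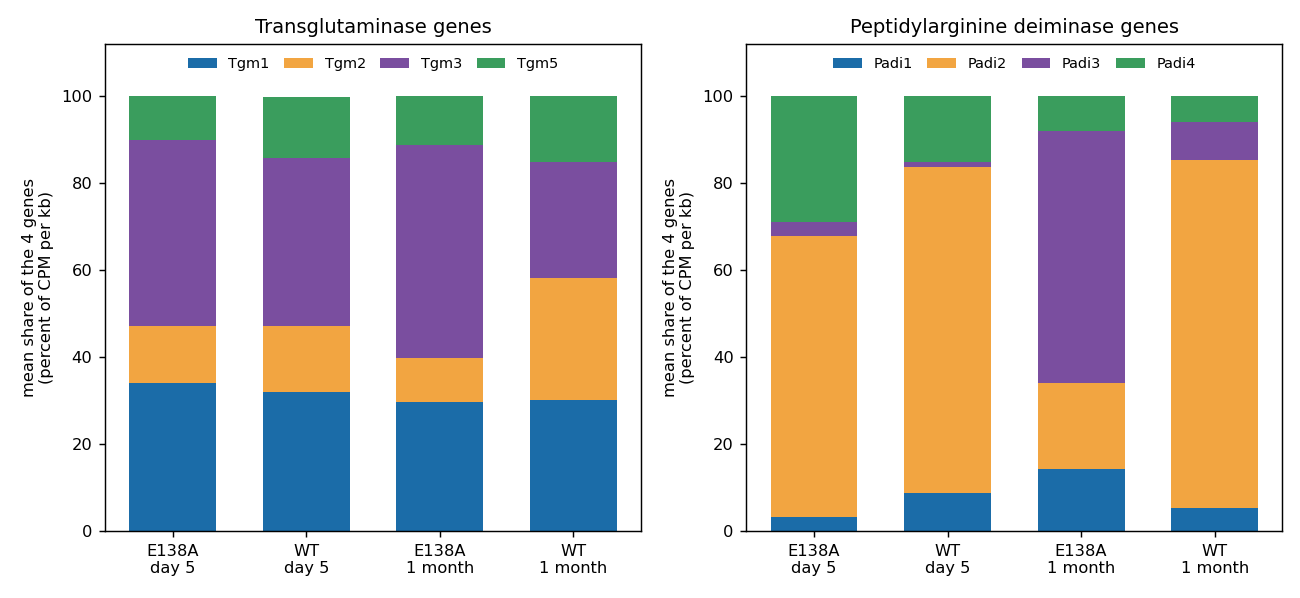
Mean share of each gene in the summed level per kilobase of its family, in percent, for the 4 groups. Padi3 holds 58.0% of the deiminase sum in E138A ears at 1 month and 8.82% in WT ears, and Padi2 holds 19.8% in E138A ears and 79.9% in WT ears of that time.

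The 4 deiminase genes summed to 2.59 ± 0.457 CPM per kb in E138A ears and 3.37 ± 0.388 CPM per kb in WT ears at day 5 (SD, n = 6 libraries each), and to 14.8 ± 7.13 CPM per kb in E138A ears and 9.61 ± 2.25 CPM per kb in WT ears at 1 month. Padi2 led at day 5, with 64.5 ± 17.4% of the sum in E138A and 74.8 ± 5.19% in WT ears. At 1 month Padi3 led in E138A ears with 58.0 ± 10.1%, against 8.82 ± 7.32% in WT ears, where Padi2 held 79.9 ± 15.4% against 19.8 ± 10.9% in E138A ears. In E138A ears at 1 month the neighbours in the order Padi3, Padi2, Padi1 and Padi4 overlapped in range. In WT ears at 1 month Padi2 stood clear of the other 3, which overlapped among themselves.

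In WT ears between day 5 and 1 month Tgm2, Padi2 and Padi3 rose and Tgm3 fell, 4 of 8 members, where 9.09% of all genes were called (6.28% higher and 2.81% lower). The WT groups of the 2 times did not overlap for Tgm3, Padi2 and Padi3, 3 of 8 members, as for 5.07% of all genes. The call for Tgm2 was lost in 10 of the 24 fits without 1 library (0.65 to 0.83, adjusted p 0.054 to 0.125), those without a WT library other than day 5 replicate 3 and 1-month replicate 1. The call for Tgm3 was lost in 11 (-0.65 to -0.60, adjusted p 0.0517 to 0.0905), those without WT day 5 replicates 1 to 5, WT 1-month replicate 2, 3, 5 or 6, or E138A day 5 replicate 2 or 4. In E138A ears Padi1 and Padi3 rose and no other member was called, where 19.4% of all genes were called (11.2% higher and 8.23% lower). Tgm2, at -0.18 with time in E138A ears (edgeR adjusted p = 0.638), was called lower without the 4 libraries that stood apart (-0.72, adjusted p = 0.0339). Limma voom (-0.81, adjusted p = 0.000245) and the GC covariate (-0.51, adjusted p = 0.026) also called Tgm2 lower there. Padi1 and Padi3 also did not overlap between the times in E138A ears, as for 8.61% of all genes. The E138A and WT libraries of each time enter more than 1 of these comparisons, so they are not independent of each other. Age and time after tamoxifen cannot be told apart in either.

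Of the other genes read beside these families, not all of which code for active enzymes, Tgm6, Tgm7 and F13a1 had enough counts to be tested, and Tgm4, F13b, Epb42 and Padi6 did not. Tgm6, the neighbour of Tgm3 on chromosome 2, had no count in the 6 WT libraries of day 5 and a mean of 0.77 CPM in E138A ears, at least 25.6-fold higher when the WT group as a whole is set to 3 counts. At 1 month Tgm6 was at 5.47 ± 3.05 CPM in E138A and 0.647 ± 0.667 CPM in WT ears (log2 fold change 3.03 ± 0.59, edgeR adjusted p = 0.000315). Tgm7, the neighbour of Tgm5, went the other way, at 0.453 ± 0.531 CPM in E138A and 2.7 ± 0.701 CPM in WT ears at day 5 (-2.53 ± 0.50, edgeR adjusted p = 0.000265) and 0.114 ± 0.0971 CPM in E138A and 3.97 ± 1.51 CPM in WT ears at 1 month (-5.10 ± 0.58, adjusted p = 2.03e-07). F13a1, the clotting factor XIII subunit gene of macrophages, was at 163 ± 27.5 CPM in E138A and 110 ± 13.9 CPM in WT ears at day 5 (0.57 ± 0.23, edgeR adjusted p = 0.0479) and was not called at 1 month (adjusted p = 0.686). The day 5 call of F13a1 was lost in 12 of the 24 fits without 1 library (0.48 to 0.59, adjusted p 0.0517 to 0.11), those without WT day 5 replicate 1, 2, 4, 5 or 6, E138A day 5 replicate 2, 3, 4 or 6, WT 1-month replicate 1 or 6, or E138A 1-month replicate 3. Of 10 monocyte and macrophage markers 9 were higher in E138A ears at day 5 and 10 at 1 month (9 without the 4 libraries that stood apart), with sums of 411 to 1500 CPM in E138A and 277 to 333 CPM in WT ears at day 5, and 504 to 865 CPM in E138A and 225 to 396 CPM in WT ears at 1 month. Among these markers Cd163 lost its 1 month call in 17 of the 24 fits without 1 library (edgeR adjusted p 0.0516 to 0.121). Csf1r gained a day 5 call in 1 of them. The part of monocytes and macrophages in F13a1 and Tgm2 was not tested.

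The substrates of the transglutaminases split into a group that rose and a group that fell. Of 38 cornified envelope precursor genes tested, 19 were higher and 15 lower in E138A ears at day 5 (median log2 fold change 0.49, against -0.02 over all genes), and 19 were higher and 17 lower at 1 month (median 1.17, against 0.05). Leaving out the 4 libraries that stood apart gave 19 higher and 16 lower at day 5, and 20 higher and 17 lower at 1 month. The risers were small proline-rich (Sprr) and Lce3 genes, and the fallers were loricrin (Lor), periplakin (Ppl) and Lce1 genes, joined at 1 month by Sprr4. Sprr2b, of smallest adjusted p among the risers at both times, was at 121 ± 85 CPM in E138A and 0.119 ± 0.0733 CPM in WT ears at day 5, and 62.1 ± 43.5 CPM in E138A and 0.176 ± 0.233 CPM in WT ears at 1 month. Lce1m, a late envelope gene, was at 4.86 ± 3.94 CPM in E138A and 128 ± 12.3 CPM in WT ears at day 5, and at 1.3 ± 0.972 CPM in E138A and 108 ± 20.8 CPM in WT ears at 1 month. Sprr2d had log2 fold changes of 7.57 ± 0.74 and 6.95 ± 0.71, and Sprr2i of 7.30 ± 0.71 and 6.85 ± 0.69. Sprr2 and Lce genes are near-identical copies among which reads could be split, so their single values are uncertain. Fitted fold changes of genes with few WT counts depend on the prior count.

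Among 10 genes for proteins known to be deiminated, 2 were higher and 3 lower in E138A ears at day 5, and 5 were higher and 4 lower at 1 month. Over all genes 40.9% were called at day 5 and 47.1% at 1 month. Flg, which codes for profilaggrin, a substrate of PADI1 and PADI3, was at 52.1 ± 37.3 CPM in E138A and 462 ± 146 CPM in WT ears at day 5, and at 755 ± 309 CPM in E138A and 377 ± 314 CPM in WT ears at 1 month. Its log2 fold change was -3.15 ± 0.53 (edgeR adjusted p = 5.64e-05) at day 5 and 1.00 ± 0.50 at 1 month, which did not pass (adjusted p = 0.103) except without WT replicate 1 (1.39, adjusted p = 0.0241), and the change between the times was 4.15 ± 0.72 (adjusted p = 0.00053). S100a3, which codes for a cysteine-rich hair cuticle protein that human PADI3 deiminates, was at 0.963 ± 0.239 CPM in E138A and 5.13 ± 1.51 CPM in WT ears at day 5 (edgeR adjusted p = 1.81e-06), and at 49.7 ± 24.3 CPM in E138A and 8.77 ± 2.63 CPM in WT ears at 1 month (adjusted p = 1.04e-07), a change of sign between the times (4.91 ± 0.41, adjusted p = 4.6e-08). Tchh, which codes for trichohyalin, was at 410 ± 259 CPM in E138A and 43.6 ± 56.8 CPM in WT ears at 1 month (3.23 ± 0.56, edgeR adjusted p = 4.33e-05) and was not called at day 5 (adjusted p = 0.546). The keratin genes Krt1 and Krt2 went apart, Krt1 higher at both times (2.94 ± 0.37 and 3.77 ± 0.38) and Krt2 at 67.8 ± 34.1 CPM in E138A and 8150 ± 1920 CPM in WT ears at 1 month (-6.91 ± 0.33, edgeR adjusted p = 9.24e-13). Flg2, the filaggrin relative, was lower at both times (-3.81 ± 0.58 and -6.82 ± 0.68).

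Over all genes 40.9% were called at day 5 and 47.1% at 1 month, to be set beside the list counts that follow. Of 8 genes of filaggrin breakdown, 1 was higher and 2 lower in E138A ears at day 5, and 3 were higher and 2 lower at 1 month (median log2 fold changes 0.06 and 0.18). Without the 4 libraries that stood apart 3 were higher and 3 lower at day 5, and 2 were higher and 4 lower at 1 month (medians 0.08 and -0.21). Blmh, the bleomycin hydrolase that cuts deiminated filaggrin, was at 252 ± 105 CPM in E138A and 129 ± 11.7 CPM in WT ears at day 5, and at 506 ± 135 CPM in E138A and 170 ± 35.3 CPM in WT ears at 1 month (1.57 ± 0.22, edgeR adjusted p = 2.58e-06). Casp14, a caspase that also acts on filaggrin, was higher at 1 month (2.54 ± 0.30, edgeR adjusted p = 2.81e-07), and at day 5 it was called higher without the 4 libraries (0.68, adjusted p = 0.0411). Of 9 genes of the corneocyte lipid envelope, which TGM1 is known to help attach, 1 was higher and 2 lower at day 5, and 2 were higher and 1 lower at 1 month. These counts were 1 and 3 at day 5, and 2 and 2 at 1 month, without the 4 libraries. Cers3, a ceramide synthase gene, was higher at both times (0.87 ± 0.19 and 1.27 ± 0.19), and Aloxe3, a lipoxygenase gene, lower at both (-0.67 ± 0.18 and -1.31 ± 0.18). Of 4 genes for proteases and an inhibitor upstream of transglutaminase activity, Lgmn, the legumain gene, was higher at both times, at 228 ± 85.4 CPM in E138A and 80 ± 6.01 CPM in WT ears at day 5 and 231 ± 91.2 CPM in E138A and 105 ± 27.8 CPM in WT ears at 1 month. Ctsl, a cathepsin gene, was higher at day 5 (0.29 ± 0.10), a call lost without E138A replicate 2, 5 or 6 (adjusted p 0.0548 to 0.0712). Ctsd and Cst6 were not called at either time over the 24 libraries. Without the 4 libraries that stood apart Cst6, a cystatin gene, was called lower at 1 month (-1.33, adjusted p = 6.49e-05), as it was without E138A 1-month replicate 2 (-0.89, adjusted p = 0.0039) or 6 (-0.72, adjusted p = 0.0402). Ctsd, another cathepsin gene, was called higher at 1 month without WT replicate 5 or E138A replicate 3, 4 or 5 (0.48 to 0.53, adjusted p 0.0196 to 0.0495).

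Of 12 transcription factor genes of late epidermal differentiation, 4 were higher and 1 lower in E138A ears at day 5, and 6 were higher and 1 lower at 1 month. Over all genes 40.9% were called at day 5 and 47.1% at 1 month, and the day 5 count was near that share. At each time 5 of the 12 were higher and 2 lower without the 4 libraries that stood apart. Cebpa was not called at 1 month (0.10, edgeR adjusted p = 0.686), and it was called lower without these 4 libraries (-0.41, adjusted p = 0.0314) and in limma voom (-0.42, adjusted p = 0.00682). Elf3, an epithelial factor gene, was at 14.1 ± 6.39 CPM in E138A and 1.12 ± 0.249 CPM in WT ears at day 5, and at 17.1 ± 4.74 CPM in E138A and 1.99 ± 0.81 CPM in WT ears at 1 month. Maf was lower at both times (-0.63 ± 0.15 and -1.27 ± 0.15). Zfp750, a driver of terminal differentiation, was higher by 0.81 ± 0.12 at 1 month (edgeR adjusted p = 5.46e-06), and Cebpb was higher by 0.90 ± 0.23 at day 5 (adjusted p = 0.00319). The 6 keratinocyte markers summed to 24200 to 33600 CPM in E138A and 20600 to 29300 CPM in WT ears at day 5, and to 27100 to 47100 CPM in E138A and 16300 to 27500 CPM in WT ears at 1 month. Of the 6, 2 were called higher and 1 lower at day 5, and 3 higher and 2 lower at 1 month. Krt1 was at 11700 ± 2780 CPM in E138A and 856 ± 441 CPM in WT ears at 1 month. Krt10 was at 6150 ± 1520 CPM in E138A and 9150 ± 2250 CPM in WT ears at that time. Without the 4 libraries Trp63 was also called higher at day 5 (0.515, edgeR adjusted p = 0.0124). Krt5 was then not called at 1 month (0.07, edgeR adjusted p = 0.738), and its call was also lost in 8 of the 24 fits without 1 library. The part of keratinocyte number in the rise of Tgm1, Tgm3 and Tgm5 was not tested.

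**Figure D5:**
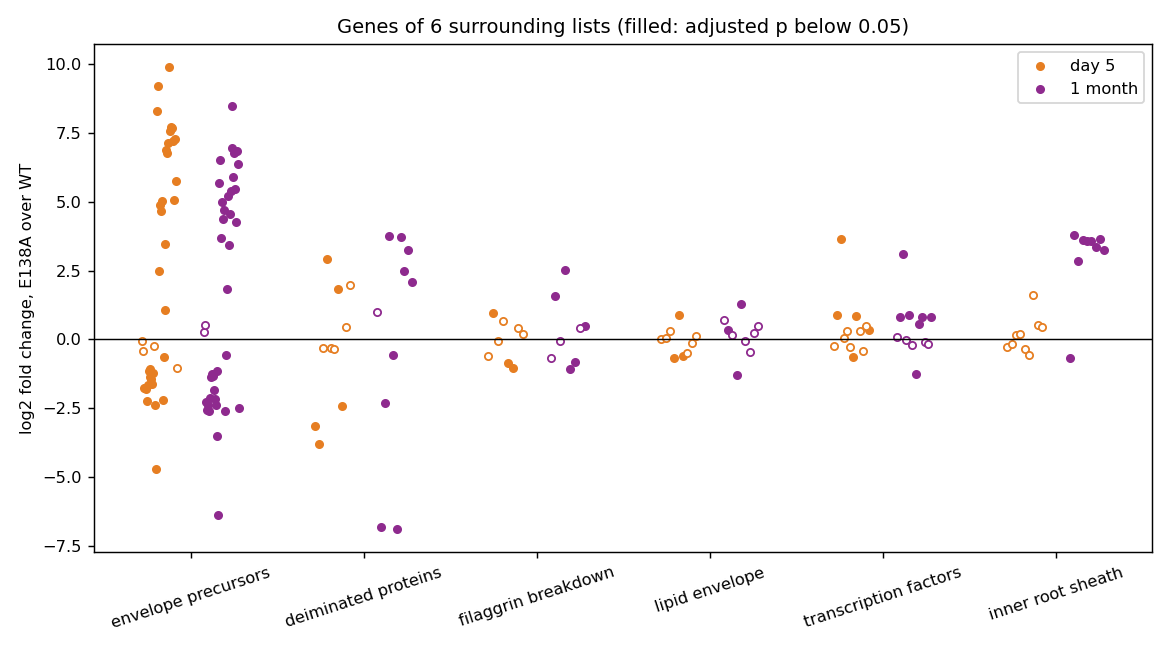
Log2 fold change of E138A over WT at day 5 and at 1 month for every tested gene of 6 lists, with filled points where the adjusted p is below 0.05. The envelope precursors split into genes above and below 0 at both times. Of the 9 inner root sheath genes 0 were called at day 5, and 8 lie above 2 at 1 month.

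The genes whose log2 CPM moved most like each member over the 24 libraries were found by the root mean square difference after each gene was centred on its own mean. For Padi3 these were Krt28 (0.50) and Krt73 (0.54), where the spread of Padi3 itself was 2.78. For Padi2 they were Tpm2, a muscle tropomyosin gene, and Neurl1a (0.28 each, own spread 0.90). For Padi1 they were S100a3 (0.79) and Prr9 (0.83, own spread 1.62). Tgm3 lay nearest Il1rn, which codes for the interleukin 1 receptor antagonist, and Ttc39a (0.26 each, own spread 0.88), and Tgm1 nearest Ppif and Ceacam19 (0.27 each, own spread 0.70). Tgm2 lay nearest S100a13 (0.21) and Msrb1 (0.24, own spread 0.49), and Tgm5 nearest Gdpd1 and G6pdx (0.24 each, own spread 0.45). Padi4 lay nearest Tgm5 (0.46) and Myo5b (0.49, own spread 0.80). The libraries share group, time and depth differences, and likeness here is a description.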

How the data were processed

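RNA of whole mouse ears was sequenced from polyA-selected libraries with the KAPA mRNA Hyper Prep kit and read from a single end (HiSeq4000), as the labels' protocols state. The values deposited by the authors are RSEM expected counts per gene, per the file headers, and the submitters' processing notes name GRCm38, STAR 2.5.2, RSEM 1.3.0 and DESeq2 1.14.1. No source used here gives the annotation release. Values were rounded before use, 6.71% of them not being whole. Identifiers were matched to GENCODE M21, which held 51719 of them and not 193.

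The counts went into edgeR 4.0.16 under R 4.3.3 (filterByExpr by group, TMM factors, robust quasi-likelihood, 1 coefficient per group over 24 libraries). The two-sided tests were adjusted by Benjamini-Hochberg over 17287 genes, with calls below 0.05. The standard error is the log2 fold change divided by the square root of F. The scripts were tested on simulated data for the day 5 comparison. They recovered 11 of 67 genes seeded at 1.5-fold, 51 of 67 at 2-fold and 65 of 66 at 4-fold. Among unchanged genes 4 were called. Few genes differed in that simulation, unlike in these data, so detection here may differ. Levels per kilobase use union exon length, and log2 CPM a prior count of 2. Repeat libraries were looked for by chi-square over genes, whose smallest value per degree of freedom was 4.86, and none was found. Promoter windows are from RefSeq (GRCm38.p6), found for 7 of 8 members.

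The members and gene lists were chosen with earlier results of these data known. Named genes are the members, Card14, the 2 genes nearest each member with a mean of at least 5 CPM, any gene of a list of up to 10, and the 4 of smallest adjusted p in longer lists. Members of marker lists could also be named beside a result whatever their adjusted p, as Mpo and Ly6g were. Exceptions are loricrin, periplakin, Sprr4 and Cebpa, which were named after their values were seen, and 1 gene that the rule names is not reported here. Alternatives were DESeq2 1.42.0, limma 3.58.1 voom, RLE factors, no TMM factors, no filter, 1 CPM in 6 libraries, a fit that is not robust, only the libraries compared, the replicate block, and leaving out each library. Leaving out the 4 libraries that stood apart or 3 whose counts rose most with GC content (correlation above 0.4), and that correlation as a covariate, were added after the data were seen. The correlation ran from -0.461 to 0.56 over the libraries, and libraries at its negative end were kept. Among those were E138A 1-month replicates 4 and 5 (-0.461 and -0.412), WT 1-month replicate 1 (-0.42) and E138A day 5 replicate 1 (-0.402).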

Additional observations from a re-analysis of the deposited data

Results flagged for a closer look

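In WT ears at 1 month Padi4 was highest in replicate 1, at 5.75 CPM, and the gap to the next library was 0.649 of the whole range of the 6. It was the 1 such case among 32 member-by-group sets of 6 libraries, and about 1 in 20 is expected to pass this criterion by chance. The genotype difference changed between day 5 and 1 month for 3 members by the test of the difference itself. It changed by 0.95 for Tgm3, by 3.96 for Padi1 and by -1.11 for Padi2 on the log2 scale (edgeR adjusted p of 0.0293, 0.000138 and 0.0344). Of these, Padi1 kept its call under each alternative run for it. Tgm3 missed the call without the 4 libraries that stood apart (0.70, adjusted p = 0.0874). It also missed without the 3 libraries whose counts rose most with GC content (0.84, adjusted p = 0.0643) and in 5 of 24 fits without 1 library (adjusted p up to 0.0626). Padi2 missed the call in 12 of these 24 (adjusted p up to 0.0723) and with the replicate block (-1.07, adjusted p = 0.0821).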

How the results depend on the processing

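No member changed direction, among called values, under any alternative run. Counts of members called were 5 at day 5, 7 at 1 month, 3 for the change between the times, 4 for WT with time and 2 for E138A with time. Leaving out each library in turn gave 3 to 6, 6 to 8, 1 to 5, 2 to 4 and 2 to 3 members, 6137 to 7539, 7640 to 8243, 1191 to 1731, 937 to 3026 and 2904 to 3728 of all genes, and 87 to 99, 111 to 119, 18 to 32, 22 to 33 and 52 to 64 list genes. The replicate numbers were not treated as pairs in the main fit. Same-numbered libraries of E138A and WT deviated with correlations of -0.158 to 0.051 at day 5 and -0.733 to 0.258 at 1 month. Between the times these were -0.09 to 0.394 in E138A and -0.08 to 0.066 in WT ears. Such values cannot exclude pairing, since 1-month libraries of different numbers correlated at up to 0.755. With the replicate numbers as a block 3 members were called at day 5 (against 5), 7 at 1 month, 2 for the change between the times and 2 for WT with time (against 4), with 1019 genes in all for the last (against 1572).

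DESeq2 called 5 members and voom 5 for the change between the times (against 3), and voom called 4 for E138A with time (against 2). Over all genes voom called 11693 at day 5 (against 7068), 8216 for the change between the times (against 1516), 8219 for WT with time (against 1572) and 5879 for E138A with time (against 3360), and DESeq2 called 2458 for WT with time. The counts in brackets are those of the edgeR fit described in the report. Without the 4 libraries that stood apart, 4630 genes were called for the change between the times and 3168 for WT with time, and the GC covariate gave 2833 for the change between the times. For list genes the change between the times called 25, against 69 with voom, 49 without the 4 libraries and 41 with the GC covariate, and WT with time called 28, against 66 with voom. With only the libraries compared, 2109 genes were called for E138A with time. The causes were not tested. Without a filter the day 5 call of Padi2 (-0.59, adjusted p = 0.0603) and the WT time call of Tgm3 (-0.59, adjusted p = 0.0718) were lost, and with the GC covariate the WT time call of Tgm2 was lost (0.45, adjusted p = 0.0912). Without the 3 libraries of high GC correlation Padi4 missed the threshold at 1 month (1.09, adjusted p = 0.0506) as did Tgm3 in WT with time (-0.60, adjusted p = 0.0508) and in the change between the times (0.84, adjusted p = 0.0643), whereas Tgm5 at day 5 (0.48, adjusted p = 0.0464), Tgm2 at 1 month (-0.71, adjusted p = 0.0125) and the change of Tgm2 between the times (-1.39, adjusted p = 0.00382) passed. Padi3 and Padi1 had at most 27 counts per library at day 5, which limits what could be detected there.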

Other observations

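Of the other cell types whose markers were read, the 6 fibroblast markers stood out. For 4 of them the genotype difference was higher at 1 month than at day 5 by the test of that change, as for 4.68% of all genes. Of the 6, 1 was higher and 3 lower in E138A ears at day 5, and 5 were higher and 1 lower at 1 month. These counts were 1 and 4 at day 5, and 4 and 1 at 1 month, without the 4 libraries that stood apart. Col1a1, the type I collagen gene, was at 1360 ± 461 CPM in E138A and 4470 ± 630 CPM in WT ears at day 5, and at 5060 ± 2960 CPM in E138A and 2290 ± 514 CPM in WT ears at 1 month (SD, n = 6 libraries each). Of 5 cartilage markers tested, 5 were lower at day 5 and 3 at 1 month, and of 6 sebocyte markers, 3 and 4 were lower. Of 6 endothelial markers 1 was higher and 1 lower at day 5, and 3 were higher at 1 month. Without the 4 libraries 5 cartilage markers were lower and 1 endothelial marker was higher at 1 month. In the 24 fits without 1 library the endothelial markers Emcn and Tie1 lost their 1 month calls in 21 and 11. Cdh5 and Kdr gained a 1 month call in 3 and 2 of them, and Pecam1 lost its day 5 call in 4. Krt15, a basal and bulge keratin gene among the 6 keratinocyte markers, was at 263 ± 154 CPM in E138A and 1510 ± 187 CPM in WT ears at day 5, and at 208 ± 69.5 CPM in E138A and 1960 ± 367 CPM in WT ears at 1 month.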
